A study of Drosophila melanogaster with 27 samples.

Results

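Axon guidance genes and neuronal cell adhesion genes were followed through RNA immunoprecipitation of human TDP-43 from *Drosophila* heads. The set was a list of 40 named genes, taken as given and looked up by FlyBase identifier in a count table of 17529 genes. Of these, 39 were present, 38 under their listed symbol and *Con* (connectin, listed as conn) under a synonym, and *hbs* was not analysed here. The rule that finds them uses no measured value, but the list was chosen with earlier results of these data known. They comprised Slit and its Robo receptors, Netrins and their receptors, Semaphorins and Plexins, Ephrin and Eph, receptor tyrosine phosphatases, teneurins with leucine-rich repeat partners, Kekkons, N-cadherins, fasciclins and other adhesion molecules, and the immunoglobulin proteins of the Irre cell recognition module.

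Growing axons choose their path by reading ligands such as Slit, Netrin and Semaphorin through receptors on the growth cone, where attraction and repulsion are relayed to the actin cytoskeleton. Adhesion molecules bind like or partner molecules on neighbouring cells, bundle axons and match synaptic partners. In the mushroom body, the learning centre of the fly brain, Kenyon cell axons form lobes in which Fas2 and Nrg are well known surface proteins. Many of these genes stay expressed in the adult brain. TDP-43 is an RNA-binding protein that is mislocalised in ALS and frontotemporal dementia, and G298S is a mutation found in patients.

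Flies of pooled sex, aged 1 to 3 days, carried 1 of 3 UAS transgene stocks crossed to the split-GAL4 line SS01276, which is active in a subset of mushroom body neurons. The TDP-43 WT stock held UAS TDP43WT-YFP with UAS mCD8-RFP, a membrane marker, the TDP-43 G298S stock held UAS TDP43G298S-YFP with the same marker, and the YFP control stock held UAS-2XEYFP without it. Flies were pooled within a lysate, whole heads were lysed, and YFP-tagged protein was pulled down with GFP-Trap beads. Each of 3 lysates per genotype gave an IP library (RNA on the beads), an input library (RNA of the head lysate) and an unbound library (RNA left after the pull-down), 27 in all. The labels name Kenyon cells as the cell type, but the inputs are RNA of all head tissues, in which fewer cells of a type and less RNA per cell cannot be told apart. Lysates are named by genotype and number as WT-502, WT-505 and WT-202 (TDP-43 WT), G298S-503, G298S-506 and G298S-203 (TDP-43 G298S) and YFP-901, YFP-902 and YFP-201 (YFP), and values per library follow this order. WT-202, G298S-203 and YFP-201 share a label prefix, the other TDP-43 lysates of both genotypes share another, and YFP-901 and YFP-902 have their own. Outside the prefix shared by all genotypes, a difference of TDP-43 from YFP and one of label prefix therefore cannot be told apart.

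Total counts per library lay between 1848426 in the IP of G298S-503 and 157035496 in the input of G298S-203, and the 39 genes took 0.0782% to 0.691% of them. The fewest counts were those of *NetA*, with 11 in 1 library. All 39 passed the filter on low counts. Levels are CPM, read counts relative to the library size after TMM scaling, and a log2FC is the fitted log2 ratio with its standard error (SE, n = 3 lysates per genotype). Adjusted p-values come from edgeR's quasi-likelihood test with Benjamini-Hochberg adjustment over all genes tested. Because n is 3 and a lysate is a pool, they measure the spread between pools. In WT-502 the IP and input of one lysate deviated together least of all 9 lysates. Of 10 Kenyon cell markers, the IP over input of 2, *ey* and *prt*, was higher in both TDP-43 genotypes than in YFP, while the list had differences of -1.33 to 2.71 (median 0.50) for TDP-43 WT minus YFP and -1.63 to 2.27 (median -0.09) for TDP-43 G298S minus YFP.

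Many guidance and adhesion mRNAs were recovered above their input level in each pull-down, including that of YFP alone. For a call of enrichment, IP over input had to exceed a log2FC of 1 at an adjusted p below 0.05. By this rule 20 of 39 were enriched with TDP-43 WT, against 10.5% of all 12921 genes tested, 13 with TDP-43 G298S, against 7.39%, and 26 with YFP, against 10.3%. The calls were nested: all 13 TDP-43 G298S calls were among the 20 of TDP-43 WT, and all 20 were among the 26 of YFP. Another 13 genes were enriched in no IP. The median log2FC of the 39 genes was 1.25 in the TDP-43 WT IP, 0.75 in the TDP-43 G298S IP and 1.39 in the YFP IP, where the median over all genes was -0.09, -0.16 and -0.14. Below a log2FC of -1 with an adjusted p under 0.05 lay none with TDP-43 WT (3.03% of all genes), 1 with TDP-43 G298S, *Fas1* (2.44%), and none with YFP (1.42%).

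The spread between lysates was wide. Per lysate, the median log2 ratio of the 39 genes was 1.96, 0.68 and 0.61 in TDP-43 WT, 0.77, 0.44 and 0.81 in TDP-43 G298S and 1.81, 0.83 and 1.83 in YFP lysates, with WT-502 the highest and YFP-902 the lowest of their genotype. Without WT-502, 7 genes were enriched with TDP-43 WT (6.79% of all genes), and without any one TDP-43 G298S lysate 5 to 7 were (4.93% to 6.01%). Enrichment held in every alternative for *robo1*, *Sema1b*, *Lar* and *kek1* with TDP-43 WT, for *Sema1b* and *kek1* with TDP-43 G298S and for 13 genes with YFP.

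**Figure D1:**
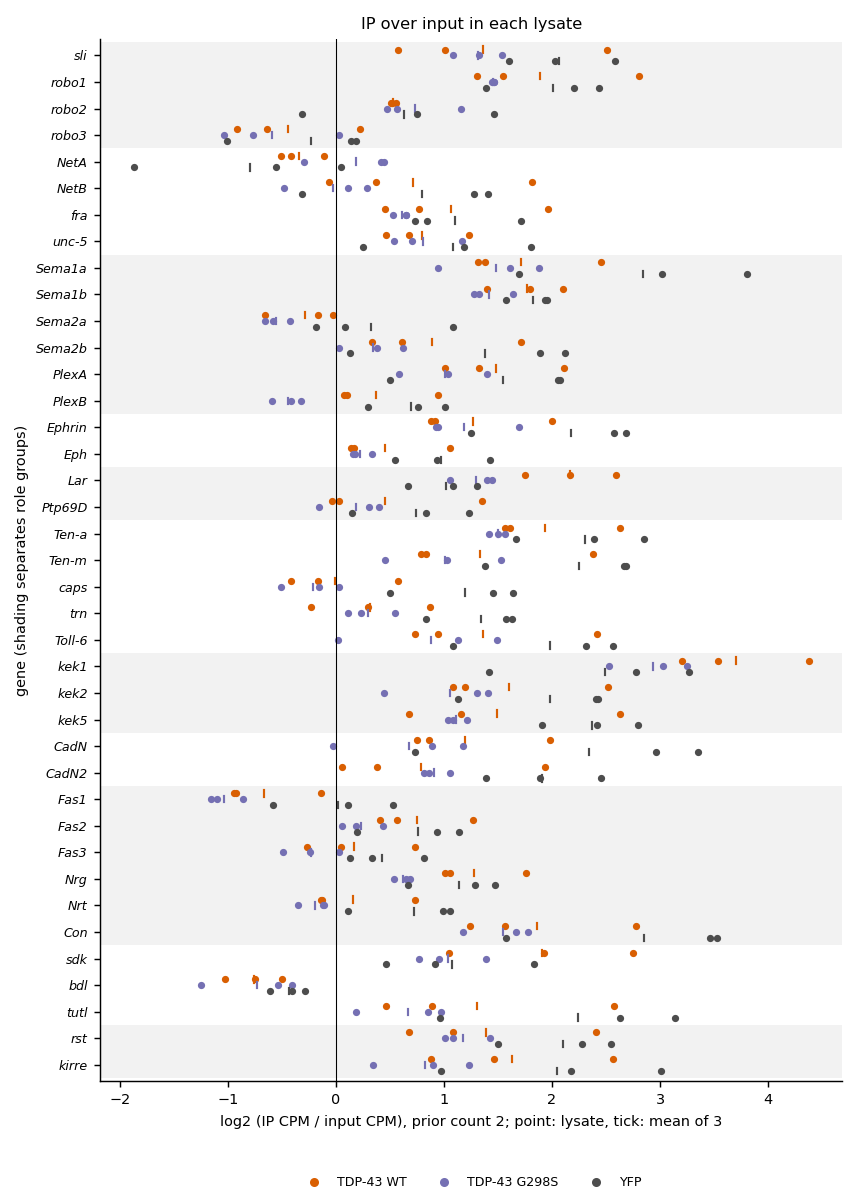
The log2 ratio of IP to input CPM of each of the 39 genes in each of the 9 lysates, with TDP-43 WT, TDP-43 G298S and YFP from top to bottom within a gene, points for lysates and ticks for the mean of 3. *kek1* lies farthest to the right with TDP-43 WT, and most YFP means lie to the right of the TDP-43 means.

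Slit, a secreted repellent of the midline, and its receptors Robo1, Robo2 and Robo3 were not all recovered. In the IP, *robo1* was at 77.6, 53.6 and 41.3 CPM with TDP-43 WT, 51.3, 58.1 and 58.0 CPM with TDP-43 G298S and 73.4, 34.5 and 39.3 CPM with YFP. Its inputs were at 10.3, 18.4 and 15.8 CPM with TDP-43 WT, 19.0, 18.4 and 19.8 CPM with TDP-43 G298S and 14.2, 13.5 and 9.50 CPM with YFP. IP and input did not overlap in any genotype, and the log2FC was 1.90 ± 0.31 (adjusted p = 0.0003) with TDP-43 WT, 1.46 ± 0.31 (adjusted p = 0.003) with TDP-43 G298S and 2.08 ± 0.32 (adjusted p = 0.00026) with YFP. The IP of *sli* held 68.7, 33.5 and 25.2 CPM with TDP-43 WT, 42.0, 44.9 and 60.1 CPM with TDP-43 G298S and 45.1, 31.8 and 38.4 CPM with YFP, and its inputs 11.3, 16.7 and 16 CPM with TDP-43 WT, 17.1, 18.6 and 19.2 CPM with TDP-43 G298S and 11.7, 10.7 and 7.14 CPM with YFP. Its log2FC of IP over input was 1.47 ± 0.32 (adjusted p = 0.0024) with TDP-43 WT, 1.33 ± 0.32 (adjusted p = 0.0064) with TDP-43 G298S and 2.04 ± 0.33 (adjusted p = 0.00037) with YFP. *robo2* and *robo3* were enriched in no IP, with values between -0.54 for *robo3* and 0.75 for *robo2* with TDP-43 G298S. An antisense RNA overlaps 22.9% of the exon bases of *robo2*, so that its counts are uncertain. *robo3* instead differed between inputs, at 18.8, 43.4 and 29.1 CPM with TDP-43 WT, 37.1, 27.2 and 35.1 CPM with TDP-43 G298S and 19.7, 17.0 and 12.3 CPM with YFP. The input log2FC of *robo3* was 0.94 ± 0.30 for TDP-43 WT over YFP (adjusted p = 0.0456) and 1.04 ± 0.30 for TDP-43 G298S over YFP (adjusted p = 0.018), although its TDP-43 WT and YFP inputs overlapped. With TDP-43 G298S *sli* was also higher in the input, by 0.92 ± 0.32 (adjusted p = 0.041).

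Netrin ligands are secreted attractants and repellents, Frazzled (fra, the DCC homologue) mediates attraction and Unc-5 repulsion. Only the receptors passed the IP rule. *fra* had a log2FC of IP over input of 1.09 ± 0.24 (adjusted p = 0.0029) with TDP-43 WT, 0.61 ± 0.24 (adjusted p = 0.083) with TDP-43 G298S and 1.06 ± 0.25 (adjusted p = 0.0049) with YFP. *unc-5* had 0.82 ± 0.34 (adjusted p = 0.093) with TDP-43 WT, 0.83 ± 0.35 (adjusted p = 0.1) with TDP-43 G298S and 1.24 ± 0.35 (adjusted p = 0.017) with YFP, and so passed with YFP and not with either TDP-43 protein. That the genotypes differ was not shown for either receptor, since the differences of IP over input from YFP were 0.03 ± 0.34 and -0.45 ± 0.34 for *fra* and -0.42 ± 0.49 and -0.41 ± 0.49 for *unc-5*. *NetB* showed the larger change between inputs, with 26.5, 55.2 and 35.6 CPM with TDP-43 WT, 58.2, 54.8 and 55.4 CPM with TDP-43 G298S and 20.4, 20.2 and 15 CPM with YFP. All 6 TDP-43 inputs were above the 3 YFP inputs, and the log2FC was 1.12 ± 0.37 for TDP-43 WT over YFP (adjusted p = 0.0498) and 1.63 ± 0.37 for TDP-43 G298S over YFP (adjusted p = 0.0052). In the IPs the same gene was at 99.7, 52.5 and 48.6 CPM with TDP-43 WT, 69.3, 44.9 and 64.2 CPM with TDP-43 G298S and 46.9, 15.8 and 35.7 CPM with YFP, where the TDP-43 WT libraries lay above the YFP libraries and the TDP-43 G298S libraries overlapped them. *fra* was higher in the TDP-43 G298S inputs by 0.90 ± 0.24 (adjusted p = 0.013). *NetA*, the other Netrin, was at 3.28 to 6.14 CPM in the TDP-43 IPs, 1.36 to 4.14 CPM in the YFP IPs, 3.54 to 4.71 CPM in the TDP-43 inputs and 4.50 to 5.42 CPM in the YFP inputs, and passed no rule.

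Semaphorins signal through Plexins, the transmembrane class 1 members through PlexA and the secreted class 2 members mainly through PlexB. The 2 transmembrane Semaphorins and PlexA were enriched in all IPs. *Sema1a* held 121, 75 and 42.2 CPM with TDP-43 WT, 118, 74.9 and 84.0 CPM with TDP-43 G298S and 155, 39.6 and 69.6 CPM with YFP in the IP and 20.7, 29.0 and 16.1 CPM with TDP-43 WT, 32.8, 34.1 and 25.5 CPM with TDP-43 G298S and 11.7, 12.5 and 9.55 CPM with YFP in the input. Each IP of *Sema1a* lay above all inputs, and its input was lowest with YFP. The log2FC of IP over input was 1.81 ± 0.44 (adjusted p = 0.0053) with TDP-43 WT, 1.49 ± 0.43 (adjusted p = 0.02) with TDP-43 G298S and 3.08 ± 0.46 (adjusted p = 0.00022) with YFP. *Sema1b* was steadier, at 204, 190.4 and 141 CPM with TDP-43 WT, 199, 191 and 185 CPM with TDP-43 G298S and 166, 121 and 124 CPM with YFP in the IP against 44.4, 55.3 and 50.7 CPM with TDP-43 WT, 65.3, 68.9 and 68.8 CPM with TDP-43 G298S and 45.8, 41.7 and 35.6 CPM with YFP in the input. Its log2FC was 1.77 ± 0.18 (adjusted p = 6.1e-06) with TDP-43 WT, 1.41 ± 0.18 (adjusted p = 6.2e-05) with TDP-43 G298S and 1.83 ± 0.19 (adjusted p = 1.3e-05) with YFP, the smallest SE of the set. For *PlexA* the log2FC was 1.57 ± 0.34 (adjusted p = 0.0025) with TDP-43 WT, 1.01 ± 0.34 (adjusted p = 0.041) with TDP-43 G298S and 1.68 ± 0.34 (adjusted p = 0.0022) with YFP, with the TDP-43 G298S call at the edge of the rule and lost without any one lysate of that genotype. The secreted *Sema2b* passed with YFP and not with either TDP-43 protein, at 1.52 ± 0.39 (adjusted p = 0.0084), and *Sema2a* and *PlexB* in no IP.

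All 6 Semaphorin and Plexin genes were higher in the TDP-43 G298S inputs than in the YFP inputs. *Sema2a* inputs were at 30.8, 43.9 and 31.5 CPM with TDP-43 WT, 46.8, 35.3 and 46.6 CPM with TDP-43 G298S and 25.2, 22.1 and 17.3 CPM with YFP, and no TDP-43 input reached down to a YFP input. *Sema2a* had an input log2FC of 0.76 ± 0.21 for TDP-43 WT over YFP (adjusted p = 0.026) and 1.01 ± 0.21 for TDP-43 G298S over YFP (adjusted p = 0.0031). *PlexB* inputs were at 20.4, 28.2 and 17.1 CPM with TDP-43 WT, 30.7, 30.5 and 27.4 CPM with TDP-43 G298S and 13.9, 16.1 and 12.5 CPM with YFP, with a log2FC of 0.68 ± 0.22 for TDP-43 WT over YFP (adjusted p = 0.0497) and 1.09 ± 0.22 for TDP-43 G298S over YFP (adjusted p = 0.0029), again without overlap. Between inputs, the others passed with TDP-43 G298S and not with TDP-43 WT, by 1.49 ± 0.44 (adjusted p = 0.02) for *Sema1a*, 0.75 ± 0.18 (adjusted p = 0.007) for *Sema1b*, 1.29 ± 0.38 (adjusted p = 0.02) for *Sema2b* and 1.5 ± 0.34 (adjusted p = 0.0052) for *PlexA*.

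Ephrin, a membrane-bound ligand, and its receptor tyrosine kinase Eph did not have the same IP calls. *Ephrin* was at 144, 79.7 and 65.8 CPM with TDP-43 WT, 158, 112 and 112 CPM with TDP-43 G298S and 147, 57.0 and 102 CPM with YFP in the IP and 33.8, 43.5 and 33.0 CPM with TDP-43 WT, 50.0, 51.2 and 54.8 CPM with TDP-43 G298S and 24.2, 24.6 and 19.1 CPM with YFP in the input, and every IP was above every input. It was enriched in all IPs, by 1.34 ± 0.32 (adjusted p = 0.005) with TDP-43 WT, 1.2 ± 0.32 (adjusted p = 0.013) with TDP-43 G298S and 2.27 ± 0.33 (adjusted p = 0.00018) with YFP. *Eph* had a log2FC of IP over input of 0.49 ± 0.19 (adjusted p = 0.073) with TDP-43 WT, 0.22 ± 0.19 (adjusted p = 0.47) with TDP-43 G298S and 0.96 ± 0.20 (adjusted p = 0.0021) with YFP and stayed under the fold rule. Both were higher in the TDP-43 G298S inputs than in the YFP inputs, *Ephrin* by 1.23 ± 0.32 (adjusted p = 0.011) and *Eph* by 0.97 ± 0.20 (adjusted p = 0.0027).

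Lar and Ptp69D are receptor tyrosine phosphatases that steer motor and photoreceptor axons. *Lar* had 133, 83.3 and 67.0 CPM with TDP-43 WT, 73.1, 69.5 and 72.7 CPM with TDP-43 G298S and 53.4, 40.3 and 47.2 CPM with YFP in the IP and 20.6, 24.9 and 14.2 CPM with TDP-43 WT, 28.3, 29.2 and 24.9 CPM with TDP-43 G298S and 22.7, 26.1 and 24.8 CPM with YFP in the input. The TDP-43 IPs of *Lar* were all above the YFP IPs, whereas its inputs overlapped. IP over input was 2.20 ± 0.22 (adjusted p = 4.2e-06) with TDP-43 WT, 1.3 ± 0.22 (adjusted p = 0.0005) with TDP-43 G298S and 1.03 ± 0.21 (adjusted p = 0.0025) with YFP. The difference from YFP, 1.16 ± 0.30 (adjusted p = 0.076) for TDP-43 WT, was the largest positive one of the 39 genes but did not pass, and for TDP-43 G298S it was 0.27 ± 0.30 (adjusted p = 0.81). The gene CG46244, on the same strand, shares 83.6% of the exon bases of *Lar* and is listed at 0 in every library, so the counts of *Lar* are uncertain. *Ptp69D* was enriched in no IP, with 0.54 ± 0.29 (adjusted p = 0.19) with TDP-43 WT, 0.20 ± 0.29 (adjusted p = 0.67) with TDP-43 G298S and 0.71 ± 0.29 (adjusted p = 0.086) with YFP. Neither passed between inputs.

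Teneurins match synaptic partners across the cleft, and the leucine-rich repeat proteins Caps, Trn and Toll-6 act in target selection and axon wiring. All 5 were enriched with YFP and 3 with TDP-43 WT. *Ten-a*, the longest transcript of the set, was at 517, 384 and 208 CPM with TDP-43 WT, 319, 305 and 285 CPM with TDP-43 G298S and 367, 183 and 202.5 CPM with YFP in the IP and 78.3, 127 and 66.8 CPM with TDP-43 WT, 111, 99.9 and 93.7 CPM with TDP-43 G298S and 53.7, 59.3 and 43.2 CPM with YFP in the input. Its log2FC was 1.98 ± 0.32 (adjusted p = 0.00027) with TDP-43 WT, 1.5 ± 0.32 (adjusted p = 0.0031) with TDP-43 G298S and 2.37 ± 0.33 (adjusted p = 0.00012) with YFP, and no IP overlapped an input. *Ten-m* had 1.52 ± 0.40 (adjusted p = 0.0093) with TDP-43 WT, 1.04 ± 0.40 (adjusted p = 0.073) with TDP-43 G298S and 2.31 ± 0.41 (adjusted p = 0.00087) with YFP, and *Toll-6* 1.42 ± 0.41 (adjusted p = 0.016) with TDP-43 WT, 0.98 ± 0.41 (adjusted p = 0.1) with TDP-43 G298S and 2.13 ± 0.42 (adjusted p = 0.0017) with YFP. *caps* was different. Its IPs were at 119, 73.1 and 71.9 CPM with TDP-43 WT, 126, 87.5 and 105 CPM with TDP-43 G298S and 123, 58.1 and 82.1 CPM with YFP, with overlap between the genotypes, and its inputs at 75, 98.4 and 76.9 CPM with TDP-43 WT, 127, 109 and 109 CPM with TDP-43 G298S and 41.8, 42.2 and 33.5 CPM with YFP, with all TDP-43 inputs above all YFP inputs. The input log2FC of *caps* was 1.15 ± 0.27 for TDP-43 WT over YFP (adjusted p = 0.012) and 1.58 ± 0.27 for TDP-43 G298S over YFP (adjusted p = 0.0011), and IP over input was 0.03 ± 0.26 (adjusted p = 0.96) with TDP-43 WT, -0.20 ± 0.26 (adjusted p = 0.64) with TDP-43 G298S and 1.26 ± 0.27 (adjusted p = 0.0028) with YFP. Of the differences from YFP, -1.23 ± 0.37 (adjusted p = 0.15) and -1.46 ± 0.37 (adjusted p = 0.081), neither passed in edgeR, while DESeq2 called both (-1.28, adjusted p = 0.020, and -1.48, adjusted p = 0.0049). *trn* had IP over input values of 0.32 ± 0.25 (adjusted p = 0.39) with TDP-43 WT, 0.30 ± 0.25 (adjusted p = 0.43) with TDP-43 G298S and 1.39 ± 0.25 (adjusted p = 0.00091) with YFP. In the TDP-43 G298S inputs *Ten-m* was higher by 1.8 ± 0.41 (adjusted p = 0.0051), the largest input change of the set, *Ten-a* by 0.99 ± 0.31 (adjusted p = 0.03), *Toll-6* by 1.18 ± 0.41 (adjusted p = 0.043) and *trn* by 0.72 ± 0.25 (adjusted p = 0.04).

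Kekkons are transmembrane proteins with leucine-rich repeats and an immunoglobulin domain, of which Kek1 is known as an inhibitor of the EGF receptor. *kek1* was the most enriched gene of the set with both TDP-43 proteins. Its IPs were at 808, 573 and 393 CPM with TDP-43 WT, 547, 411 and 573 CPM with TDP-43 G298S and 284, 88.2 and 169.6 CPM with YFP. Its inputs were at 36.5, 62.6 and 32.2 CPM with TDP-43 WT, 68.5, 62.5 and 56.0 CPM with TDP-43 G298S and 30.9, 33.9 and 27.6 CPM with YFP. Every TDP-43 IP was above every YFP IP, and the inputs of TDP-43 WT and YFP overlapped. IP over input was 3.71 ± 0.39 (adjusted p = 6.2e-06) with TDP-43 WT, 2.95 ± 0.37 (adjusted p = 5.1e-05) with TDP-43 G298S and 2.65 ± 0.37 (adjusted p = 0.00013) with YFP. Between IPs, *kek1* was higher with TDP-43 WT than with YFP by 1.62 ± 0.36 (adjusted p = 0.0079) and with TDP-43 G298S by 1.35 ± 0.35 (adjusted p = 0.02). The difference of IP over input from YFP was 1.06 ± 0.49 (adjusted p = 0.4) and 0.30 ± 0.49 (adjusted p = 0.89), which did not pass. *kek2* had 1.75 ± 0.39 (adjusted p = 0.0032) with TDP-43 WT, 1.09 ± 0.39 (adjusted p = 0.056) with TDP-43 G298S and 2.08 ± 0.40 (adjusted p = 0.0014) with YFP and *kek5* 1.5 ± 0.33 (adjusted p = 0.0029) with TDP-43 WT, 1.11 ± 0.33 (adjusted p = 0.022) with TDP-43 G298S and 2.42 ± 0.34 (adjusted p = 0.00015) with YFP. In the TDP-43 G298S inputs *kek5* was higher by 1.57 ± 0.33 (adjusted p = 0.0038) and *kek1* by 1.05 ± 0.35 (adjusted p = 0.038).

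N-cadherins are calcium-dependent homophilic molecules that hold axons and synaptic layers together. Both passed with YFP and not with either TDP-43 protein. *CadN* was at 95.5, 59.0 and 39.7 CPM with TDP-43 WT, 70.2, 41.4 and 62.3 CPM with TDP-43 G298S and 139, 19.7 and 59.0 CPM with YFP in the IP, with YFP-901 and YFP-902 as the highest and the lowest of the 9 libraries. Its inputs were at 22.7, 35.3 and 20.8 CPM with TDP-43 WT, 31.9, 36.9 and 31.3 CPM with TDP-43 G298S and 14.3, 12.2 and 8.43 CPM with YFP, all TDP-43 inputs above all YFP inputs. The log2FC of IP over input was 1.25 ± 0.51 (adjusted p = 0.08) with TDP-43 WT, 0.70 ± 0.51 (adjusted p = 0.36) with TDP-43 G298S and 2.74 ± 0.54 (adjusted p = 0.0016) with YFP. For *CadN2* it was 0.88 ± 0.30 (adjusted p = 0.041) with TDP-43 WT, 0.90 ± 0.31 (adjusted p = 0.045) with TDP-43 G298S and 1.91 ± 0.32 (adjusted p = 0.0005) with YFP, where both TDP-43 values passed the adjusted p but not the fold. Inputs of *CadN2* held 7.50, 12.8 and 10.2 CPM with TDP-43 WT, 11.6, 9.51 and 12 CPM with TDP-43 G298S and 5.48, 5.09 and 3.66 CPM with YFP, without overlap of TDP-43 and YFP. *CadN2* differed between inputs by 1.15 ± 0.31 for TDP-43 WT over YFP (adjusted p = 0.025) and 1.24 ± 0.31 for TDP-43 G298S over YFP (adjusted p = 0.0088), and *CadN* by 1.54 ± 0.52 (adjusted p = 0.037) for TDP-43 G298S over YFP. Without WT-502, *CadN2* was the 1 gene whose IP over input was called lower with TDP-43 WT than with YFP (-1.68, adjusted p = 0.033).

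Fasciclins, Neuroglian (Nrg, the L1 homologue), Neurotactin (Nrt) and Connectin (Con) mediate adhesion of like or partner cells. *Fas1* was the most abundant of the 39 genes per length in all inputs. Its IPs were at 719, 689 and 637 CPM with TDP-43 WT, 703, 662 and 665 CPM with TDP-43 G298S and 895, 536 and 793 CPM with YFP and its inputs at 740.1, 1331 and 1152 CPM with TDP-43 WT, 1310.0, 1239.9 and 1378 CPM with TDP-43 G298S and 875, 823 and 614 CPM with YFP. With both TDP-43 proteins the IPs were all below the inputs, whereas with YFP they overlapped. *Fas1* had a log2FC of IP over input of -0.71 ± 0.23 (adjusted p = 0.029) with TDP-43 WT, -1.04 ± 0.23 (adjusted p = 0.0039) with TDP-43 G298S and 0.02 ± 0.23 (adjusted p = 0.96) with YFP. It was called depleted with TDP-43 G298S, at the edge of the fold rule. That call was lost by library sizes alone, without mitochondrial and rRNA genes and in the fit of all libraries. It was also lost with the unbound fraction as reference and without G298S-203. *Con* was at 359, 194 and 164 CPM with TDP-43 WT, 278, 193 and 261 CPM with TDP-43 G298S and 354, 83.7 and 213 CPM with YFP in the IP and 49.0, 82.8 and 52.6 CPM with TDP-43 WT, 82.8, 74.9 and 76.4 CPM with TDP-43 G298S and 32.3, 28.9 and 21.5 CPM with YFP in the input. All IPs of *Con* were above all inputs, with 1.91 ± 0.42 (adjusted p = 0.0025) with TDP-43 WT, 1.56 ± 0.41 (adjusted p = 0.012) with TDP-43 G298S and 3.07 ± 0.44 (adjusted p = 0.00015) with YFP. *Nrg* was enriched with TDP-43 WT and YFP, at 1.28 ± 0.19 (adjusted p = 0.00015) with TDP-43 WT, 0.62 ± 0.19 (adjusted p = 0.029) with TDP-43 G298S and 1.14 ± 0.19 (adjusted p = 0.0006) with YFP. *Fas2*, *Fas3* and *Nrt* stayed between -0.21 and 0.77 and were enriched in no IP. In the TDP-43 G298S inputs all 6 were higher than in the YFP inputs, by 0.58 ± 0.19 for *Fas3*, 0.63 ± 0.22 for *Nrt*, 0.79 ± 0.23 for *Fas1*, 0.96 ± 0.21 for *Fas2*, 1.05 ± 0.19 for *Nrg* and 1.52 ± 0.41 for *Con*, with adjusted p of 0.03, 0.042, 0.018, 0.004, 0.0016 and 0.013 in this order. The mus302 gene on the other strand overlaps 21.8% of the exon bases of *Nrt*, and the strand setting of the counts is not given in the sources used here.

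Among the other immunoglobulin adhesion genes, *bdl* (borderless) ran against the rest. Its inputs were at 99.8, 155 and 152 CPM with TDP-43 WT, 99.1, 94.1 and 97.5 CPM with TDP-43 G298S and 229, 243 and 215 CPM with YFP, and the YFP inputs were the highest without overlap. *bdl* was lower in the TDP-43 G298S inputs, with an input log2FC of -0.69 ± 0.23 for TDP-43 WT over YFP (adjusted p = 0.0546) and -1.2 ± 0.23 for TDP-43 G298S over YFP (adjusted p = 0.0021). Its IPs were likewise lower with both TDP-43 proteins, by -1.0 ± 0.23 (adjusted p = 0.01) for TDP-43 WT over YFP and -1.42 ± 0.23 (adjusted p = 0.0013) for TDP-43 G298S over YFP, and IP over input was -0.76 ± 0.23 (adjusted p = 0.022) with TDP-43 WT, -0.66 ± 0.23 (adjusted p = 0.0516) with TDP-43 G298S and -0.44 ± 0.23 (adjusted p = 0.18) with YFP. *sdk* (sidekick) was enriched in all IPs, by 1.91 ± 0.28 (adjusted p = 0.00013) with TDP-43 WT, 1.06 ± 0.28 (adjusted p = 0.011) with TDP-43 G298S and 1.05 ± 0.28 (adjusted p = 0.012) with YFP, and passed in neither input comparison. *tutl* (turtle) had 1.31 ± 0.47 (adjusted p = 0.0479) with TDP-43 WT, 0.69 ± 0.46 (adjusted p = 0.33) with TDP-43 G298S and 2.47 ± 0.49 (adjusted p = 0.0017) with YFP, the TDP-43 WT call being lost without WT-502, and its input was higher with TDP-43 G298S than with YFP by 1.55 ± 0.47 (adjusted p = 0.024). Rst and Kirre, the paired receptors of the Irre cell recognition module, were both enriched with TDP-43 WT and YFP. *kirre* had 1.67 ± 0.40 (adjusted p = 0.0051) with TDP-43 WT, 0.84 ± 0.40 (adjusted p = 0.15) with TDP-43 G298S and 2.24 ± 0.41 (adjusted p = 0.001) with YFP and *rst* 1.53 ± 0.33 (adjusted p = 0.0025) with TDP-43 WT, 1.18 ± 0.33 (adjusted p = 0.016) with TDP-43 G298S and 2.17 ± 0.34 (adjusted p = 0.00032) with YFP. Both were higher in the TDP-43 G298S inputs, *kirre* by 1.25 ± 0.40 (adjusted p = 0.03) and *rst* by 0.93 ± 0.33 (adjusted p = 0.0462).

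**Figure D2:**
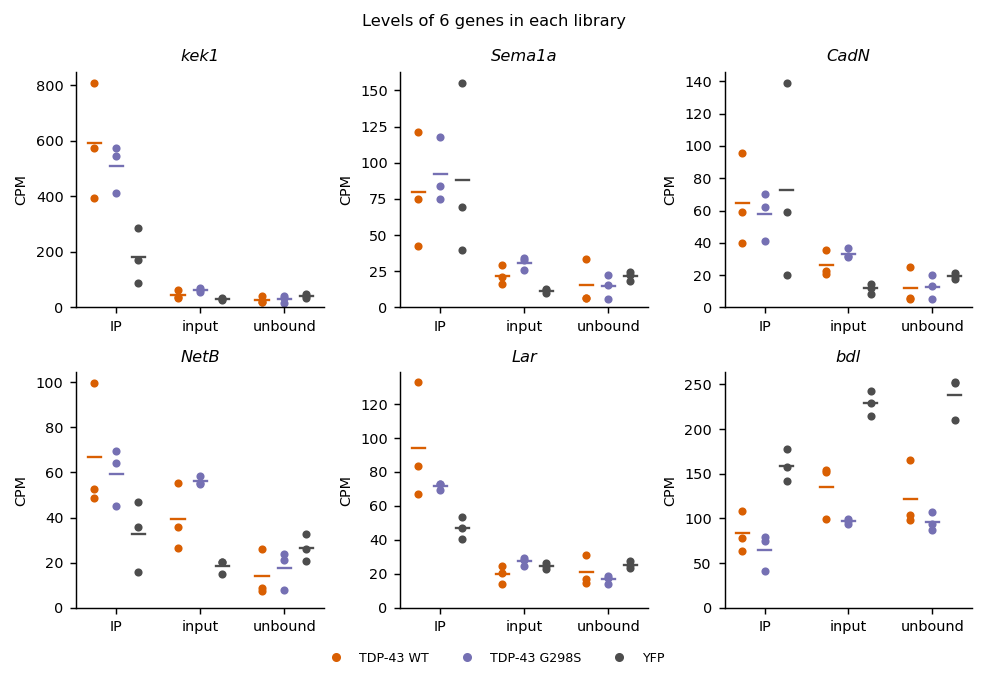
CPM of 6 genes in each of the 27 libraries, with IP, input and unbound from left to right and TDP-43 WT, TDP-43 G298S and YFP within each fraction, points for libraries and lines for the mean of 3, and an axis that starts at 0. *kek1* and *Lar* are higher in the TDP-43 IPs, *NetB* and *CadN* are higher in the TDP-43 inputs, and *bdl* is highest with YFP in every fraction.

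YFP alone was the control of the pull-down, although the study's methods state that it was expressed much more strongly than the tagged TDP-43. The comparison with it is the difference of the log2FC of IP over input between genotypes, tested as an interaction. With the input as reference, this difference lay below 0 for most of the 39 genes. With TDP-43 WT minus YFP it was negative for 33 and had a median of -0.42, against -0.0029 over all genes. With TDP-43 G298S minus YFP it was negative for 34, with a median of -0.89, against -0.02. With the unbound fraction as reference the direction turned, to medians of 0.97 and 0.89, against 0.01 and 0.02 over all genes, and 7 genes (all higher, against 4.75% of all genes in either direction) and 0 passed. The median for TDP-43 WT was -0.78 without WT-502, -0.69 without YFP-902 and -0.26 without WT-202 or without YFP-201. All 8 neuron markers were below 0 in both comparisons too, with medians of -0.65 and -0.94, and none of them passed. Of these 8, 4 were enriched in the TDP-43 WT IP (10.5% of all genes), 3 in the TDP-43 G298S IP (7.39%) and 5 in the YFP IP (10.3%). The part of these markers in the differences was not tested. With the input as reference, none of the 39 genes passed in edgeR in either comparison, where 1.45% and 0.797% of all genes did. At an unadjusted p below 0.05 there were 3 positive and 4 negative genes with TDP-43 WT and 19 negative ones with TDP-43 G298S, and DESeq2 called 3 (*Lar* up, *caps* and *trn* down) and 7 (*Sema2a*, *PlexB*, *caps*, *trn*, *CadN*, *Fas1* and *Nrt*, all down). The positive values with TDP-43 WT belonged to *Lar* (1.16 ± 0.30), *kek1* (1.06 ± 0.49), *sdk* (0.87 ± 0.39), *NetA* (0.35 ± 0.50), *Nrg* (0.14 ± 0.27) and *fra* (0.03 ± 0.34). The most negative one was that of *CadN*, -1.49 ± 0.71 for TDP-43 WT minus YFP and -2.04 ± 0.72 for TDP-43 G298S minus YFP. Of TDP-43 WT set against TDP-43 G298S, no gene of the set passed in edgeR or DESeq2, against 0.263% of all genes in edgeR, and 4 had an unadjusted p below 0.05, all positive.

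The reference of the IP was not the same in all genotypes, as the inputs show. Some guidance and adhesion genes were higher in the inputs of TDP-43 WT heads than in those of YFP heads, and most were with TDP-43 G298S. With TDP-43 WT, 6 were higher (*robo3*, *NetB*, *Sema2a*, *PlexB*, *caps* and *CadN2*), against 7.58% of all genes, and none lower, against 7.37%. With TDP-43 G298S, 30 were higher, against 15.4%, and 1, *bdl*, was lower, against 12%. The medians of the set were 0.68 and 0.99, where those of all genes were 0.13 and 0.09. All 3 TDP-43 WT inputs lay above all 3 YFP inputs for 24 genes (21.2% of all genes), and all 3 TDP-43 G298S inputs for 36 (32%). For 32 genes of the TDP-43 WT comparison and 33 of the TDP-43 G298S comparison the input value was above 0 and the interaction value below 0. The inputs enter both values, so the pair is not independent. Between the inputs of both TDP-43 proteins a difference passed for none of the 39 in edgeR or DESeq2, against 0.248% of all genes in edgeR, with 1 positive and 3 negative at an unadjusted p below 0.05.

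The input counts depended on single libraries and on the test. For TDP-43 WT over YFP they ran from 1 without WT-505 or without YFP-902 to 13 without WT-502, and DESeq2 called 23. It was 2 or 3 without YFP-201, WT-202, G298S-506 or G298S-203, 10 without YFP-901, and 1 with the label prefix as a term. Of the 31 for TDP-43 G298S over YFP, 15 were left without YFP-201, 16 without G298S-203, 17 without G298S-506 and 19 without G298S-503, and 33 passed without YFP-901. No share over all genes is given for the counts under these alternatives. A general change in calls therefore cannot be told from one of the 39 genes. Within the shared prefix, with 1 lysate per genotype and so no test, 37 of 39 genes were higher in the WT-202 input than in the YFP-201 input, with a median log2 difference of 1.04, and 38 in the G298S-203 input, with a median of 1.37. In the same lysates, IP over input was lower than in YFP-201 for 37 genes with WT-202 (median difference -1.2) and for 37 with G298S-203 (-1.18). The 39 genes took 0.136% of the counts of the YFP-201 input, against 0.219% in YFP-901 and 0.197% in YFP-902. The reference of these comparisons was thus the lowest YFP input by this measure. They are given without a share over all genes.

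Markers of whole cell types moved with the inputs, where 7.58% of all genes were higher and 7.37% lower in TDP-43 WT inputs, and 15.4% higher and 12% lower in TDP-43 G298S inputs. All 8 neuron markers had positive input values with both TDP-43 proteins, 3 of them called higher in TDP-43 WT inputs and 5 in TDP-43 G298S inputs, and their summed level was 1483 to 2587 CPM with TDP-43 WT, 2245 to 2327 CPM with TDP-43 G298S and 963 to 1207 CPM with YFP. Of 10 photoreceptor markers, 3 were lower in TDP-43 WT inputs and 9 in TDP-43 G298S inputs, and the summed level was 14245 to 22186 CPM, 11385 to 12391 CPM and 23421 to 28614 CPM in the same order. Of 10 Kenyon cell markers 2 and 7 were higher, and they summed to 457 to 787 CPM with TDP-43 WT, 641 to 733 CPM with TDP-43 G298S and 268 to 363 CPM with YFP. Of 8 muscle markers 3 and 2 were lower. Of 8 fat body markers 2 and 1 were higher (*Lsp2* by 1.34 in TDP-43 WT inputs, *apolpp* by 1.26 in these and by 1.86 in TDP-43 G298S inputs). The glia markers, of which 7 of 8 were tested, stayed at 3000.1 to 3579 CPM, 3225 to 3450.2 CPM and 3245 to 3457 CPM, with 2 higher and 1 lower with TDP-43 WT and 1 in each direction with TDP-43 G298S. No marker in these lists was at 0 in an input. The part of these markers in the input values was not tested.

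**Figure D3:**
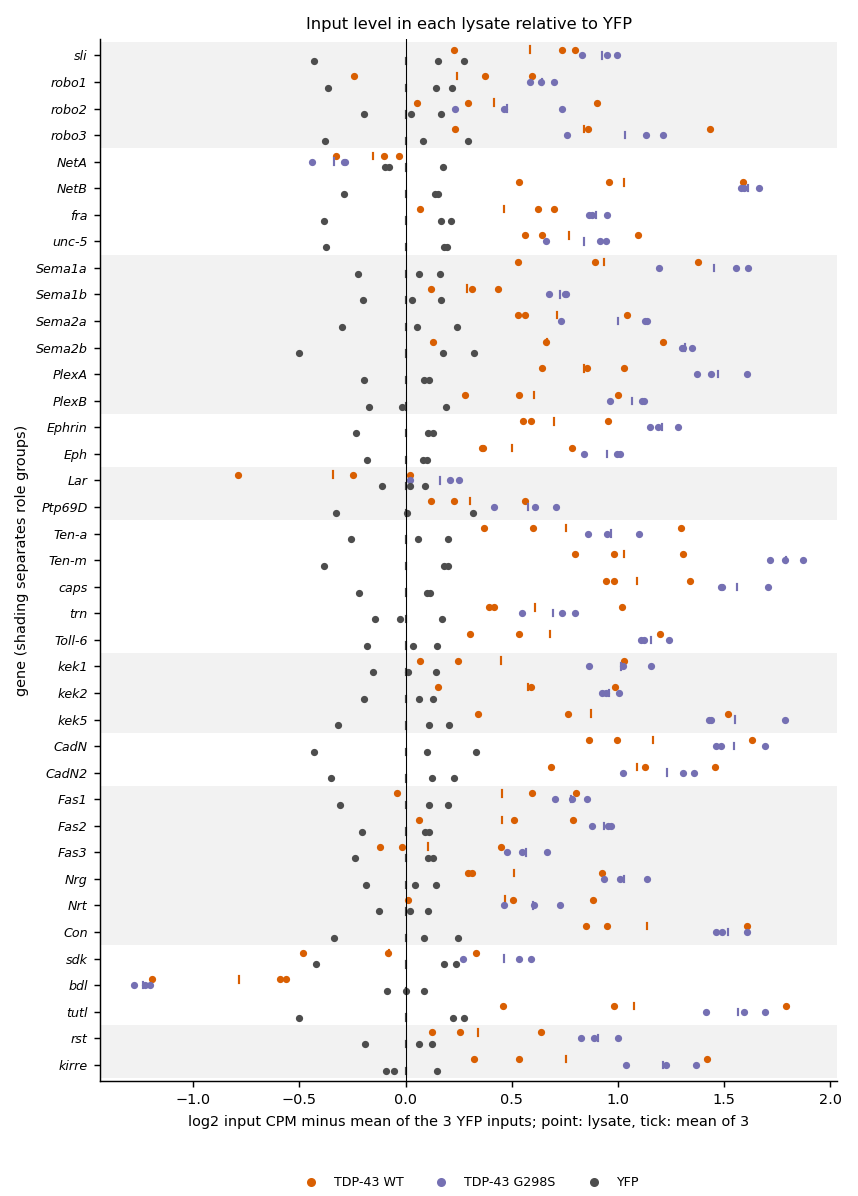
Input level of each of the 39 genes in each lysate as log2 CPM minus the mean of the 3 YFP inputs, with TDP-43 WT, TDP-43 G298S and YFP from top to bottom within a gene, points for lysates and ticks for the mean of 3. Most TDP-43 points lie right of 0, and those of *bdl* lie left of it.

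IP libraries were also compared with each other. In this comparison of IP with IP, added after the data were seen, 3 of the 39 genes were higher with TDP-43 WT than with YFP (*kek1*, *Lar* and *Nrg*, against 8.21% of all genes) and 1 lower (*bdl*, against 5.08%). With TDP-43 G298S 1 was higher (*kek1*, against 6.25%) and 1 lower (*bdl*, against 8.23%). *Lar* differed by 0.92 ± 0.21 (adjusted p = 0.01) and *Nrg* by 0.73 ± 0.19 (adjusted p = 0.021). The medians of the set were 0.15 and 0.12, and those of all genes 0.09 and 0.07. Without YFP-901 these medians were 0.51 and 0.50, without YFP-902 -0.03 and -0.05, and for TDP-43 WT -0.13 without WT-502. The shares called were at or under those of all genes. Marker lists moved too, with 8 and 9 of 10 photoreceptor markers and 3 and 4 of 8 muscle markers lower, and 7 and 6 of 10 Kenyon cell markers higher, and their part in the IP values was not tested. With the label prefix as a term 0 and 1 were called, and the counts of 4 and 2 in either direction were 1 and 1 without YFP-902, 8 and 6 without YFP-901, 2 for TDP-43 WT without WT-502, and 1 for TDP-43 G298S without G298S-503 or G298S-203. These alternative counts are given without a share over all genes.

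Unbound RNA was set against the input of its genotype, over 13349 genes and all 27 libraries. With TDP-43 WT 15 of the 39 genes were lower in the unbound fraction than in the input, against 7.8% of all genes, and with TDP-43 G298S 23 were, against 8.79%. With YFP none passed, nor did any of all genes (0%), DESeq2 called none of the 39, and 2 had a positive value at an unadjusted p below 0.05. The medians were -0.86, -1.11 and 0.41. *robo3* had the largest decrease with TDP-43 WT. Its log2 ratios of unbound to input per lysate were -1.97, -1.52 and -2.13 in lysates of TDP-43 WT, -1.23, -2.26 and -1.11 in those of TDP-43 G298S and -0.25, -0.35 and 0.52 in those of YFP, and the fitted values -1.78 ± 0.41 (adjusted p = 0.0082) for TDP-43 WT and -1.39 ± 0.40 (adjusted p = 0.028) for TDP-43 G298S. *NetB* had the largest with TDP-43 G298S, with ratios of -1.85, -1.09 and -2.01 in lysates of TDP-43 WT, -1.46, -2.77 and -1.21 in those of TDP-43 G298S and 0.36, 0.03 and 1.12 in those of YFP. Fitted, they were -1.48 ± 0.46 (adjusted p = 0.033) and -1.66 ± 0.46 (adjusted p = 0.026). For both genes all TDP-43 lysates were below all YFP lysates. *bdl* passed in no genotype, at -0.03, 0.09 and -0.55 in lysates of TDP-43 WT, -0.08, -0.11 and 0.13 in those of TDP-43 G298S and 0.14, 0.06 and -0.03 in those of YFP.

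Across the set, all 3 TDP-43 WT lysates lay below all 3 YFP lysates for 35 genes (23.7% of all genes) and all 3 TDP-43 G298S lysates for 38 (23%). Tested as an interaction, a comparison added after the data were seen, the unbound to input ratio was lower with TDP-43 WT than with YFP for 8 genes (3.09% of all genes) and with TDP-43 G298S for 20 (8.79%). The 8 were *Sema1b*, *Sema2a*, *PlexB*, *Ephrin*, *caps*, *Fas1*, *Fas2* and *Nrg*, and all were among the 20. *caps* had unbound to input log2 ratios of -1.43, -0.69 and -1.45 in lysates of TDP-43 WT, -0.92, -2.18 and -0.91 in those of TDP-43 G298S and 0.45, 0.16 and 1.22 in those of YFP, and differences from YFP of -1.73 ± 0.49 (adjusted p = 0.041) and -1.84 ± 0.49 (adjusted p = 0.032). *Sema2a* had -1.44, -0.83 and -1.07 in lysates of TDP-43 WT, -0.87, -1.91 and -0.93 in those of TDP-43 G298S and 0.14, 0.28 and 0.99 in those of YFP, with differences of -1.52 ± 0.43 (adjusted p = 0.041) and -1.57 ± 0.43 (adjusted p = 0.032). G298S-506 was the lowest TDP-43 G298S lysate and YFP-201 the highest YFP lysate for each of these. Without any one TDP-43 G298S lysate the count of 23 became 0, as did the share over all genes, and the count of 15 became 1 without WT-202, 3 without WT-502 and 8 without G298S-203. The 8 ran from 0 (without WT-502, WT-202, G298S-503, G298S-203, YFP-902 or YFP-201) to 25 without WT-505, with 1 without YFP-901 and 13 without G298S-506, and the 20 from 0 (without any TDP-43 G298S lysate or YFP-201) to 32 without WT-502, with 11 without YFP-901. With the lysate as a block, which pairs the fractions, 27 genes were lower with TDP-43 WT. In that fit 28.5% of all genes passed in either direction, against 9.1% higher and 7.8% lower without the block. The differences from YFP passed for 26 and 32 with the block. For these, and for most counts with 1 lysate left out, no share over all genes is given. A general change in calls therefore cannot be told from one of the set.

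**Figure D4:**
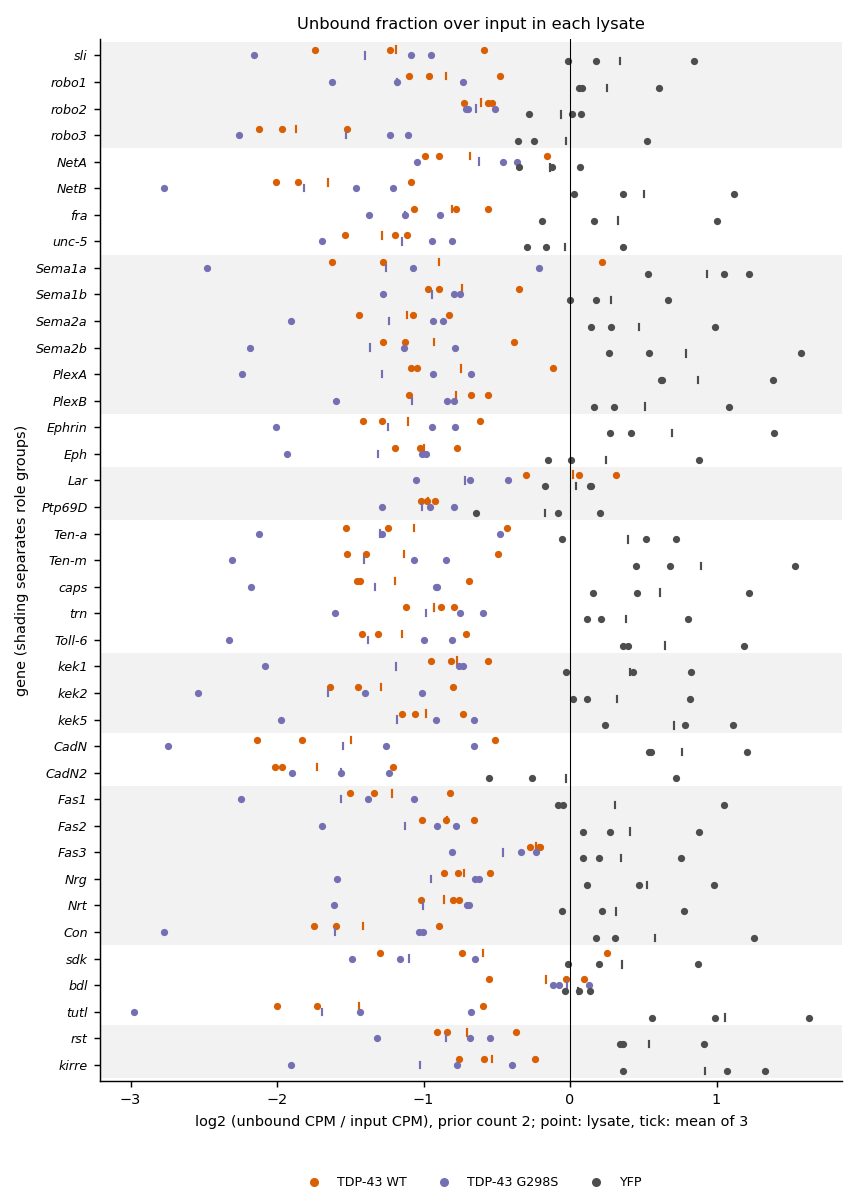
The log2 ratio of unbound to input CPM of each of the 39 genes in each lysate, with TDP-43 WT, TDP-43 G298S and YFP from top to bottom within a gene, points for lysates and ticks for the mean of 3. Nearly all TDP-43 points lie left of 0 and most YFP points right of it, and the points of *bdl* lie near 0 in all genotypes.

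Length is a property the genes share that was not used to choose them. Their median exon length was 6612 bases, with a range of 2730 for *bdl* to 17049 for *Ten-a*, against a median of 1761 bases over all genes tested, and their median gene span was 40368 bases against 2235. Over all genes, Spearman's rho of exon length with the unbound to input log2FC was -0.80 in TDP-43 WT, -0.72 in TDP-43 G298S and 0.35 in YFP libraries, and with the IP to input log2FC 0.07, 0.18 and 0.28. These are correlations across genes, which share libraries and are not independent. Genes with a median exon length of 6.51 kb, 626 of them, had median unbound values of -0.78 in TDP-43 WT, -0.87 in TDP-43 G298S and 0.19 in YFP libraries, beside -0.86, -1.11 and 0.41 for the 39 genes. For the IP, 622 genes of that length had medians of 0.55, 0.28 and 0.77, beside 1.25, 0.75 and 1.39. When a trend on exon length was removed from each library, no gene at all passed in the unbound fraction, and the enriched ones were 5 with TDP-43 WT (*robo1*, *Sema1b*, *Lar*, *kek1* and *Con*, against 8.19% of all genes), 3 with TDP-43 G298S (*Sema1b*, *kek1* and *Con*, against 6%) and 17 with YFP (against 7.28%). In that fit 2 genes were depleted in the TDP-43 WT IP and 3 in the TDP-43 G298S IP. How many of all genes were depleted in it is not given here, so these counts cannot be set against a background. The input counts were 24 with TDP-43 WT (24.0% of all genes in either direction) and 33 with TDP-43 G298S (29.2%).

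**Figure D5:**
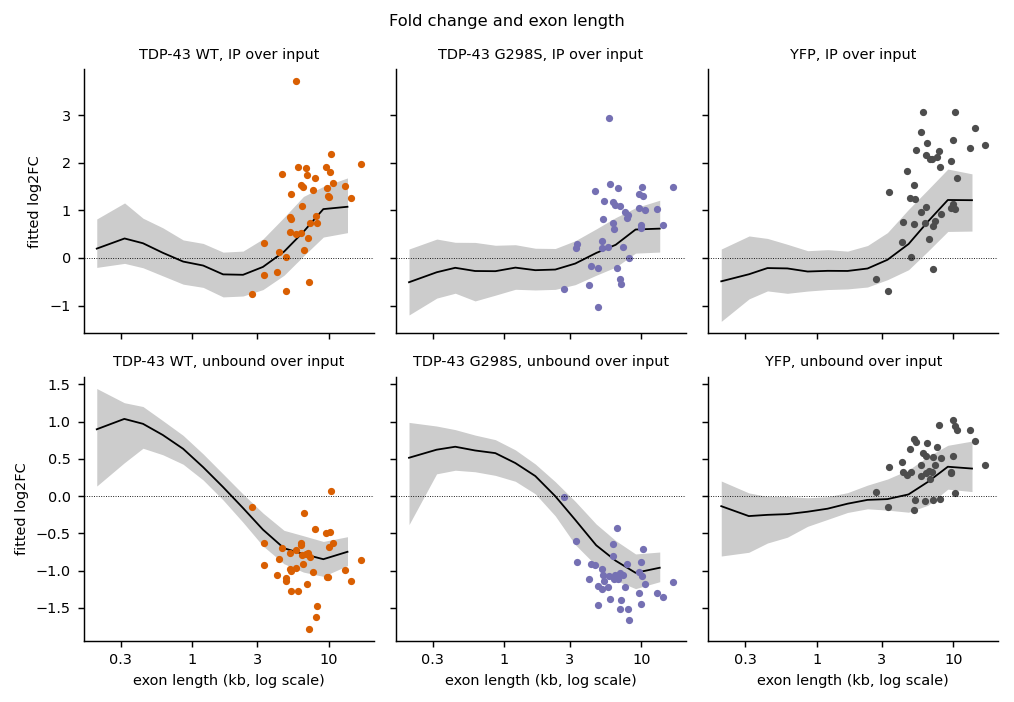
Fitted log2FC against exon length in kb on a log scale, for IP over input (top) and unbound over input (bottom), with TDP-43 WT, TDP-43 G298S and YFP from left to right, points for the 39 genes, the black line for the median of all genes in bins of length and a grey band for their quartiles. The median TDP-43 unbound value is lower in the bins of long genes than in those of short genes, and at 6.51 kb it is -0.78 in the TDP-43 WT panel and -0.87 in the TDP-43 G298S panel.

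Genes that act beside them were taken from 3 lists of known pathway members. Of 24 effectors of guidance receptors (kinases, GTPases and their regulators, actin factors), 11 were enriched in the TDP-43 WT IP (10.5% of all genes), 6 in the TDP-43 G298S IP (7.39%) and 9 in the YFP IP (10.3%), and had median log2FCs of 0.92, 0.33 and 0.83. Of 12 other cadherins 4 were enriched in each genotype. Of 18 integrins and other adhesion receptors 9 were, also in each, against the same shares of all genes. A few passed an interaction in edgeR. The atypical cadherin *ft* (fat) and the integrin alpha subunit *if* (inflated) had a higher IP over input with TDP-43 WT than with YFP, by 1.92 ± 0.39 (adjusted p = 0.019) and 3.26 ± 0.33 (adjusted p = 5.7e-05), and *if* was also higher than with TDP-43 G298S, by 2.32 ± 0.32 (adjusted p = 0.0036). The GTPase *Rac1*, a regulator of actin in growth cones, had a lower IP over input with TDP-43 G298S than with YFP, with a difference of -1.18 ± 0.20 (adjusted p = 0.018). Its input, which enters this difference, was higher with TDP-43 G298S than with YFP by 1.12 ± 0.14 (adjusted p = 0.00019). Profilin (*chic*), the GTPase *Rho1* and *fax* (failed axon connections) were higher with TDP-43 WT than with TDP-43 G298S, by 1.4 ± 0.23, 1.37 ± 0.21 and 2.96 ± 0.43 (adjusted p = 0.010, 0.0066 and 0.0043). In the inputs 6 effectors, no other cadherin and 2 adhesion receptors were higher with TDP-43 WT than with YFP, against 7.58% of all genes, and 12, 2 and 10 with TDP-43 G298S, against 15.4%, with none lower in any list.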

How the data were processed

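Total RNA of IP, input and unbound fractions of head lysates was sequenced after SMART-Seq HT PLUS amplification. The authors demultiplexed with bcl2fastq 2.19.1.403, trimmed with cutadapt 2.7, aligned with STAR 2.6.1d and deposited raw read counts per gene from featureCounts 1.6.3; the genome release and the strand setting are not given in the sources used here. All 27 columns matched a sample. Reads carry no molecular identifiers, so precision covers counting of PCR copies too.

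The members and lists were chosen with earlier results of these data known. Gene names and exon lengths came from the annotation supplied for the organism, and no sequence was printed. The quasi-likelihood test of edgeR 4.0.16 (R 4.3.3, limma 3.58.1) was run with TMM scaling and filterByExpr on 18 IP and input libraries (12921 genes), and for the unbound fraction on 27 libraries (13349 genes), without a lysate term. Log CPM used a prior count of 2. The test was checked on simulated counts.

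Full statistics were given for genes called in an interaction or input contrast and for the 2 to 4 of each role with the largest IP change. Pathway genes were named where an interaction was called. Fractions of 1 lysate share its number in the labels, which pairs them: deviations from the group means correlated by 0.061 to 0.73 between input and IP, 0.68 to 0.92 between input and unbound, and 0.043 to 0.74 between IP and unbound. Alternatives were DESeq2 1.42.0, its size factors, library sizes alone, no filter, leaving out mitochondrial and rRNA genes, removal of an exon length trend, a fit of all libraries, the lysate as a block, the label prefix as a term, the unbound fraction as reference, and each of 9 lysates left out. The IP with IP comparison and the unbound interaction were added after the data were seen.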

Additional observations from a re-analysis of the deposited data

Results flagged for a closer look

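The ratio of unbound to input differed between genotypes by the interaction test in 8 of the 39 genes for TDP-43 WT minus YFP and in 20 for TDP-43 G298S minus YFP, against 3.09% and 8.79% of all genes. With 1 lysate left out these counts ran from 0 to 25 and from 0 to 32. The 8 shared genes had log2 differences for TDP-43 WT and TDP-43 G298S of -1.73 and -1.87 for *Ephrin*, -1.47 and -1.79 for *Fas1*, -1.23 and -1.48 for *Fas2*, -1.22 and -1.41 for *Nrg*, -1.29 and -1.57 for *PlexB*, -0.97 and -1.20 for *Sema1b*, -1.52 and -1.57 for *Sema2a*, and -1.73 and -1.84 for *caps*. The other 12 lay between -1.24 and -2.48 with TDP-43 G298S. None of these passed once the exon length trend was removed.

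Outside the 39 genes, the same test on IP over input gave log2 differences of 1.92 for *ft* and 3.26 for *if* with TDP-43 WT minus YFP, and -1.18 for *Rac1* with TDP-43 G298S minus YFP. The input of *Rac1*, which enters its difference, was higher with TDP-43 G298S than with YFP by 1.12. For TDP-43 WT minus TDP-43 G298S the test on IP over input gave 1.4 for *chic*, 1.37 for *Rho1*, 2.96 for *fax* and 2.32 for *if*. Of 10 Kenyon cell markers 2 were called, *ey* and *prt*, with 2.07 and 2.71 with TDP-43 WT minus YFP and 1.94 and 2.27 with TDP-43 G298S minus YFP, where the lowest of the list were at -1.33 and -1.63.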

How the results depend on the processing

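The values of single members that had passed their rule were followed under each alternative. Among these 2867 values, 2241 kept their direction and side of the threshold, 621 no longer passed and 5 reversed. Calls gained under an alternative are not in this tally. Reversals were *Fas1* in the TDP-43 G298S IP with the unbound fraction as reference (0.51) and, with the exon length trend removed, *Lar* in the YFP IP (-0.15), *Fas2* (0.022) and *Nrg* (0.15) in the TDP-43 WT and TDP-43 G298S unbound fractions and *Nrg* in the unbound difference of TDP-43 WT from YFP (0.058).

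Members called enriched in the TDP-43 WT, TDP-43 G298S and YFP IP were 5, 3 and 17 without the length trend. Against the unbound fraction they were 34, 31 and 16. Library sizes alone gave 30 for TDP-43 G298S and moved the median of all genes to 0.72. Leaving out 1 lysate gave 7 to 21, 5 to 15 and 23 to 30 members. The share of all genes called was 8.19%, 6% and 7.28% without the trend. It was 15.8%, 14.9% and 5.68% against the unbound fraction, and 10.5%, 7.39% and 10.3% in the main fit. By library sizes alone it was 30.6% for TDP-43 G298S, so calls rose among all genes too. Interaction calls for TDP-43 WT minus YFP were 3 by DESeq2 (1 up, 2 down), 1 by library sizes (up) and 7 against the unbound fraction (all up), with 0 to 1 when a lysate was left out, and for TDP-43 G298S minus YFP 7 by DESeq2 (all down), 2 by library sizes (up) and 2 without the length trend (down). Against the unbound fraction the medians of the 39 genes turned to 0.97 and 0.89, and by library sizes alone they were -0.23 and -0.22, against 0.16 and 0.66 over all genes.

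Input calls for TDP-43 WT over YFP were 23 by DESeq2, 12 with its size factors, 3 without a filter, 24 without the length trend, 2 in the fit of all libraries and 1 with the label prefix, and 1 to 13 with a lysate left out. For TDP-43 G298S over YFP they were 15 by library sizes (median of all genes -0.31), 17 in the fit of all libraries and 15 to 33 with a lysate left out, and 1 for TDP-43 WT over TDP-43 G298S by library sizes. IP with IP calls for TDP-43 WT were 7 by library sizes, 8 without the length trend, 0 with the label prefix and 1 to 8 with a lysate left out, and for TDP-43 G298S 4 by DESeq2, 8, 5, 1 and 1 to 6.

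Unbound calls with TDP-43 WT were 25 by DESeq2, 0 without the length trend and 1 to 18 with a lysate left out, and with TDP-43 G298S 35, 0 and 0 to 32. Their differences from YFP were called for 28 by DESeq2, 19 with its size factors, 16 without a filter, 0 without mitochondrial and rRNA genes, 0 without the length trend and 0 to 25 with a lysate left out for TDP-43 WT, and for 34 by DESeq2, 13 by library sizes, 0 without the length trend and 0 to 32 for TDP-43 G298S. With the lysate as a replicate block, calls were 27 and 33 in the TDP-43 WT and TDP-43 G298S unbound fractions, 26 and 32 for their differences from YFP, 21, 15 and 26 in the IPs, and 0 for the interactions of IP over input and the YFP unbound fraction. In the block fit, 10.8% of all genes were enriched in the TDP-43 WT IP and 7.59% in the TDP-43 G298S IP. Most other counts in this paragraph have no share over all genes beside them. They cannot separate a general change in calls from one of the set. The cause of these changes was not tested. A count of sequence repeats was not run.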
